A study of Mus musculus with 19 samples.

Results

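The clones called db7 and db5 are mouse induced pluripotent stem cells (iPSC) that share 1 genotype, the db mutation in Lepr, the leptin receptor gene, and their poly(A) RNA was compared here. Members were chosen by the titles of the libraries. The db7 libraries were 4 (lines adb_db7 and bdb_db7, 2 libraries each) and the db5 libraries were 4 (lines adb_db5 and bdb_db5, 2 each), which makes 8 of the 19 libraries and 4 of the 10 lines of the series. Lines that share a name are called a clone here, although the labels do not say what the numbers or the letters a and b stand for.

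Both clones carry the label db_mut. They came from fibroblasts of embryos at day 14.5, bred from OB-R db/+ parents of the Jackson Laboratory. Reprogramming used the mouse STEMCCA lentivirus with Oct4, Sox2, Klf4 and cMyc, per the series' design text. The other lines are shown beside them only as levels. They are 4 wild-type control lines made in the same way (named A5 with 3 libraries and B1 with 4, 2 lines each) and 2 lines in which the db mutation was corrected with CRISPR-Cas9 (4 libraries). All 10 lines are iPSC that received the vector, whose transcripts cannot be told apart from those of the genes themselves in these counts.

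An iPSC clone grows from a single reprogrammed fibroblast, so each clone carries the genome and the chromatin marks of that cell and of its descendants. Pluripotent cells in culture are known to gain or lose chromosome segments, and parts of the genome controlled by DNA methylation, such as imprinted clusters and silenced germline genes, are known to differ between clones. When a whole segment differs in dose, its genes usually shift together by a similar factor, and single genes stand out from that shift.

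The a and b lines of db5 were close to copies of each other, and those of db7 less so, though nearer to each other than to db5. This was measured over 8608 genes off chromosome 3 that reached 10 CPM on average (counts scaled to a common library total). The median absolute difference between the a and b line was 0.0454 on the log2 scale for db5 and 0.106 for db7. Between lines of different clones it was 0.143 to 0.217. The comparison is therefore in effect of 1 clone with 1 clone. Its p-values measure the spread between lines of the same name, which may be technical, not the spread among clones of this genotype.

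The cells expressed the markers of their labelled type. Pou5f1 lay between 1409 and 1637 CPM in the 8 libraries, and the summed level of 6 pluripotency markers was 3543 to 3718 CPM in db5 and 3563 to 3975 CPM in db7. Lepr itself was under 1 CPM throughout (0.298 to 0.435 CPM in db5 and 0.118 to 0.388 CPM in db7), so its level does not check the genotype. Total estimated counts ran from 27333665 to 37803318 per library. The second library of the a line of db7 stood apart: Gm42418, a transcript annotated over ribosomal RNA sequence, took 4.81% of its counts, against 0.123% to 0.514% in the other 7 libraries.

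Chromosome 3 was not higher as a whole in db7. Over its 422 genes of at least 10 CPM the median difference, db7 minus db5, was 0.305 on the log2 scale (1.23-fold), whereas the medians of the other chromosomes ran from -0.0935 (chromosome 7) to 0.0543 (chromosome 14). The 4 db7 libraries had chromosome 3 medians of 0.282, 0.247, 0.322 and 0.291 relative to the mean of the db5 libraries, and the db5 libraries lay between -0.0152 and 0.0285. The surplus sat in 2 stretches that hold 209 of these genes, with a median of 0.57, while the other 213 genes of the chromosome had a median of 0.00452. Over the 8636 genes outside all stretches on chromosomes 1 to 19 and X the median was -0.00106. A stretch means here a run of at least 20 neighbouring genes with a median of at least 0.3 or at most -0.3, found by dividing each chromosome where the level of the differences steps, a procedure added after the data were seen.

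The first stretch ran from Atp11b to Chtop (chr3:35754106-90509498, GRCm38, 54.8 Mb, 153 genes) with a median of 0.56, or 1.47-fold. Its 4 db7 libraries gave 0.565, 0.544, 0.588 and 0.553, and the db5 libraries stayed between -0.0126 and 0.0188. The second ran from Gm42927 to Kyat3 (chr3:120735721-142746870, 22 Mb, 56 genes) with a median of 0.642, or 1.56-fold, and its db7 libraries gave 0.628, 0.585, 0.724 and 0.662. In both stretches nearly every gene leaned the same way, 95.4% of genes above 0 in the first and 96.4% in the second, and no library of one clone reached those of the other. All 4 db7 libraries lay above all 4 db5 libraries for 138 of 153 genes in the first stretch and 51 of 56 in the second, against a background of 22.5% of genes of at least 10 CPM outside all stretches. The stretches were drawn from these same differences, so these shares follow in part from that choice and describe its size.

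**Figure D1:**
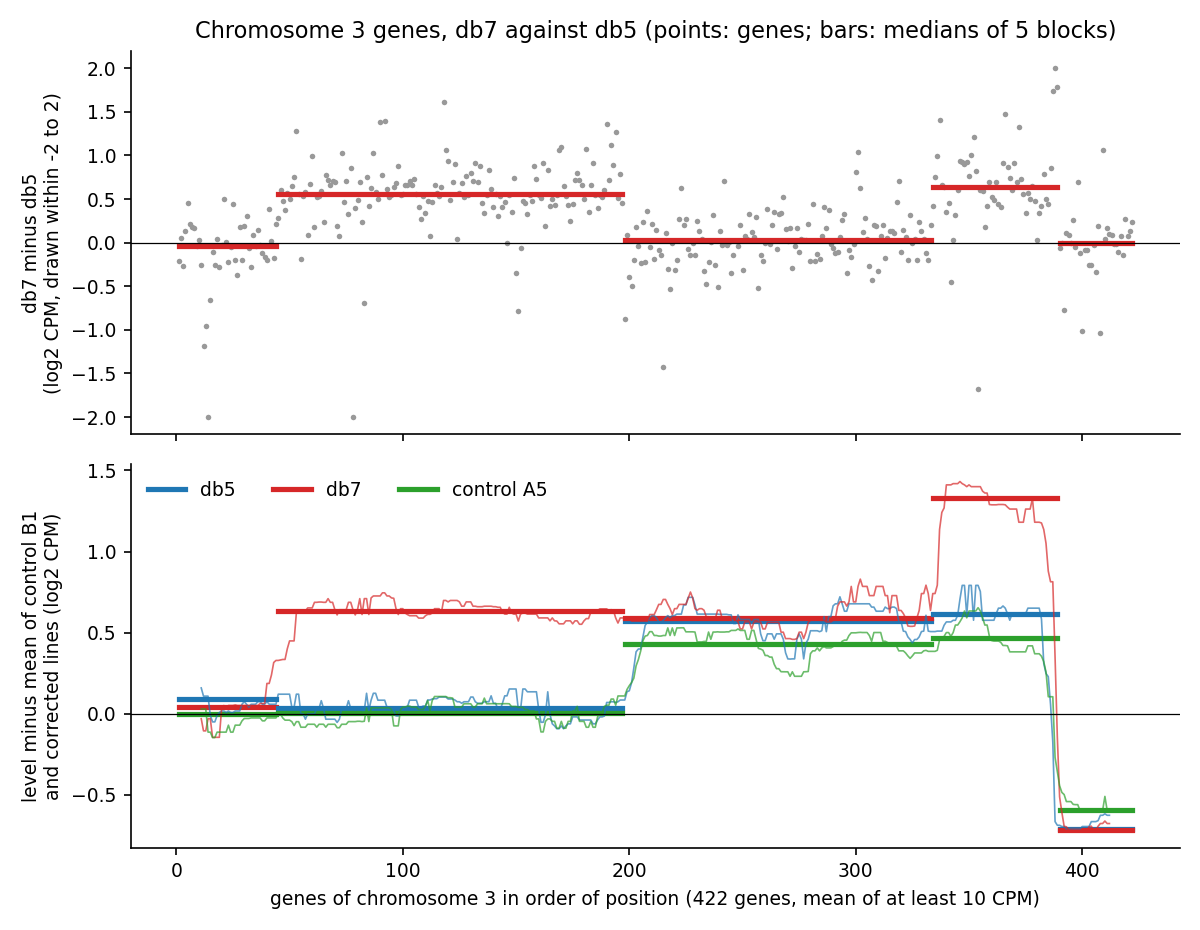
Genes of chromosome 3 in order of position along the chromosome. Above, each point is the difference of a gene, db7 minus db5 (log2 CPM, points beyond 2 drawn at the edge), and bars are medians of the 5 blocks, 0.56 and 0.642 in the 2 stretches and near 0 in the other 3. Below, thin lines are running medians over 21 genes and bars are block medians of db5, db7 and control A5 relative to the mean of control B1 and corrected lines, where db7 and db5 share the same level in 3 blocks and separate in 2.

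Calls were divided in the same way, which follows in part from how chromosome 3 and the stretches were picked. Chromosome 3 was picked with earlier results of these data known, and the stretches were drawn from these same differences. Of 932 tested genes on chromosome 3, 399 were higher in db7 (42.8%) and 133 lower (14.3%) at an adjusted p under 0.05, while of 18768 genes elsewhere 3628 were higher (19.3%) and 4109 lower (21.9%). Without the a line of db5 the 3628 became 2362. Within the 2 stretches 288 of 435 tested genes were higher (66.2%) and 22 lower. On the rest of chromosome 3, 111 of 497 were higher (22.3%) and 111 lower (22.3%), close to the 19.7% higher and 21% lower among the 18885 genes outside all stretches. Counts called in a shifted stretch contain the shift, so single genes there are also given relative to it below.

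Set beside the other groups, the 5 blocks of chromosome 3 did not share a baseline. In the first stretch db7 was the 1 high group of the 5: relative to the median of the 5 groups the block read 0 in db5, 0.549 in db7, -0.0146 in A5, 0 in B1 and -0.0586 in the corrected lines. From S100a6 to Ptbp2 (chr3:90612882-119784466, 136 genes) db5 and db7 lay together at 0.118 and 0.163, with A5 at 0, while B1 read -0.442 and the corrected lines -0.366. In the second stretch db5 (0.106) stayed near A5 (0), B1 and the corrected lines were lower (-0.476 and -0.429), and db7 reached 0.819. Against the mean of B1 and the corrected lines, a reference chosen after the values were seen, the 2 db5 lines stood at 0.622 and 0.645 there and the 2 db7 lines at 1.29 and 1.32. The last block, Gtf2b to Depdc1a (chr3:142765045-159529955, 33 genes), ran the other way, with db5 lines at -0.77 and -0.665 and db7 lines at -0.741 and -0.699 on that reference. Relative to the median of the 5 groups this block read -0.17 in db5, -0.141 in db7 and 0 in A5, against 0.643 in B1 and 0.493 in the corrected lines. From S100a6 to the end of the chromosome both db/db clones and the control A5 thus lay apart from B1 and the corrected lines, and db7 went further in the second stretch. These are RNA levels, and the DNA of the lines was not analysed here.

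In the first stretch the cell cycle genes Ccna2, Smc4 and Plk4 moved by about the stretch's own factor, and Cks1b by less. Ccna2, which encodes cyclin A2 (chr3:36564865-36572150), read 270, 267, 271 and 267 CPM in the db5 libraries and 426, 407, 426 and 422 CPM in the db7 libraries, in the order a line 1 and 2, b line 1 and 2. Every db7 library lay above every db5 library, and the change was 0.65 ± 0.04 (log2, standard error, adjusted p = 3.27e-07 by edgeR's quasi-likelihood test). Relative to the stretch the difference was 0.09, which did not pass (adjusted p = 0.0862). Smc4, a condensin subunit, read 224, 217, 231 and 235 CPM in db5 and 338, 319.6, 400.1 and 371 CPM in db7 (0.67 ± 0.07, adjusted p = 1.16e-05). The centriole kinase Plk4 rose by 0.58, whereas Cks1b, a small cyclin-dependent kinase partner, rose by 0.25, below its stretch by -0.31 (adjusted p = 0.000497).

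Other abundant genes of both stretches, chosen among those named, rose by varying amounts. The ribosomal protein gene Rps3a1 read 1359, 1364, 1412 and 1417 CPM in db5 and 2150, 1950, 2053 and 1877 CPM in db7, and rose by 0.55 ± 0.04 (adjusted p = 1.14e-06). Rpl34 and Rps27, also of the ribosome, rose by 0.50 and 0.40. Cct3 of the cytosolic chaperonin, the RNA-binding factor gene Ilf2, the RNA-editing enzyme gene Adar and the tropomyosin gene Tpm3 rose by 0.41, 0.52, 0.66 and 0.54. In the second stretch the histone variant gene H2afz rose by 0.47, the ubiquitin-conjugating enzyme gene Ube2d3 by 0.56, the cap-binding translation factor gene Eif4e by 0.44 and the fatty acid oxidation gene Hadh by 0.70. Smaller rises, below the stretch by a tested margin, were those of Gclm (glutathione synthesis, 0.35), the lysosomal mannosidase gene Manba (0.34) and Lamtor3, a member of the Ragulator complex that recruits mTOR (0.34). Of 29 tested genes of a list of well-known chromosome 3 genes that lie in the stretches, 26 rose and 2 fell. Over all tested genes of these stretches 66.2% rose.

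Tet2, which encodes an enzyme that oxidises 5-methylcytosine, lies in the second stretch (chr3:133463679-133545139). It read 283, 258, 286 and 247 CPM in db5 and 429.9, 417, 596 and 598 CPM in db7. All db7 libraries were higher, with the b line above the a line, and the change was 0.93 ± 0.11 (adjusted p = 6.28e-05). Its margin over the stretch, 0.29, did not pass (adjusted p = 0.0626). The other groups read 266 (A5), 228 (B1) and 295 CPM (corrected).

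Some genes of the stretches went far beyond the common shift. In all, 96 of 435 genes lay above their stretch's shift (22.1%) and 87 below it (20%) by the same edgeR test with the shift taken out, so departures were about as frequent there as calls outside the stretches. Pde5a, a phosphodiesterase that breaks down cyclic GMP, read 3.59, 4.06, 3.75 and 2.85 CPM in db5 and 26.5, 23.4, 30.6 and 23.9 CPM in db7, a change of 2.88 ± 0.10 that exceeded its stretch by 2.24 (adjusted p = 5.09e-08). Pdlim5, a cytoskeletal scaffold with PDZ and LIM domains, read 29, 28.8, 32.2 and 30.2 CPM in db5 and 165, 152, 180.1 and 169 CPM in db7 (2.48 ± 0.06, 1.84 beyond its stretch, adjusted p = 2.12e-09). For Pdlim5 the db5 libraries were the low ones next to A5 (78.8 CPM) and the corrected lines (82.1 CPM), and similar to B1 (32.8 CPM). For Pde5a all other groups were low (3.18, 1.55 and 1.97 CPM), and db7 stood alone. Fam198b, the aminotransferase gene Kyat3, the small GTPase exchange factor gene Rap1gds1 and Tmem144 exceeded their stretches by 1.87, 1.15, 1.10 and 1.05.

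Other members fell against the shift. Lmna, which encodes the lamins A and C of the nuclear envelope and is low in pluripotent cells, read 42.9, 38.8, 40.8 and 41.1 CPM in db5 and 22.9, 25.6, 21.8 and 24.6 CPM in db7 (-0.79 ± 0.05, adjusted p = 3.97e-07), while A5, B1 and the corrected lines read 51.6, 84.8 and 59.4 CPM. The Wnt pathway factor gene Lef1 fell by 0.96, the adaptor gene Bcar3 by 0.45, Tlr2 by 0.42 and Sema4a by 0.35; the fall of Tlr2 did not pass without the b line of either clone (adjusted p = 0.104 for db7 and 0.109 for db5). Nes, an intermediate filament gene of neural progenitors, differed by -0.27 and did not pass (adjusted p = 0.056, but 0.0236 with the duplicate number as a block), although it lay below its stretch by -0.83 (adjusted p = 9.35e-05).

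Outside its 2 stretches chromosome 3 held strong single changes in both directions. Car2, the gene of carbonic anhydrase 2 (chr3:14886273-14900770), read 56.5, 57.9, 57.9 and 56.7 CPM in db5 and 7.28, 7.1, 7.88 and 7.66 CPM in db7. The gap was nearly the same in every library, and the fall was 2.93 ± 0.05 (adjusted p = 3.61e-11). A5 was also low (18.7 CPM), whereas B1 and the corrected lines read 89.8 and 51.5 CPM. Bnipl, Sema6c, the cell-cycle transcription factor gene E2f5 and S100a6 fell by 2.03, 1.43, 1.19 and 0.87. The serine synthesis gene Phgdh fell by 0.52, and the proteasome subunit genes Psma5, Psmb4 and Psmd4 by 0.27, 0.22 and 0.19, although Psmb4 and Psmd4 no longer passed without the b line of db5 (adjusted p = 0.0707 and 0.0624).

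Gstm1, a glutathione S-transferase, read 144, 157, 146 and 152 CPM in db5 and 325, 332, 277 and 301 CPM in db7 (1.05 ± 0.05, adjusted p = 7.43e-08), and its neighbour Gstm6 rose by 1.04. Genes of this family resemble each other, so the division of reads among them is uncertain. Arnt, the shared partner of the hypoxia-inducible factors, rose by 0.63, and the histone methyltransferase gene Setdb1 by 0.27. Sox2, a core pluripotency factor at the far end of the unshifted first block, read 616, 650.2, 573 and 601 CPM in db5 and 693, 768, 671 and 697 CPM in db7, a rise of 0.22 ± 0.05 (adjusted p = 0.00368, but 0.0524 without the b line of db5). Fxr1 and Pik3ca differed by 0.02 and -0.03 and did not pass. Of the 26 list members outside the stretches 8 rose and 11 fell, against 19.7% higher and 21% lower over all tested genes there. Mad2l1, the only one of the 26 off chromosome 3 (on chromosome 6), did not pass. Without the a line of db5 the counts were 4 and 9, and without the b line 4 and 6.

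The other 5 stretches were all lower in db7 and lay on chromosomes 6, 8, 15, 16 and X. Chromosome 16 held the deepest of them, from Dcbld2 to Tiam1 (chr16:58408443-90143769, 31.7 Mb, 31 genes), at a median of -0.891 (0.539-fold), with all 31 genes below 0. The stretch on chromosome X, from Cenpi to Tspyl2 (chrX:134308084-152342425, 18 Mb, 46 genes), had a median of -0.745 (0.597-fold). Chromosome 6 held a shorter one from Foxj2 to Cd9 (chr6:122819914-125494791, 2.68 Mb, 26 genes, -0.739, 0.599-fold) and chromosome 15 one from Larp4 to Gm49273 (chr15:99970065-103661681, 3.69 Mb, 48 genes, -0.672, 0.627-fold). The one on chromosome 8, Rex1bd to Fcho1 (chr8:70504292-71725716, 1.22 Mb, 34 genes), was shallow at -0.306 (0.809-fold) and was no longer found when a larger step was demanded. The number of stretches depended on the setting. It was 6 with the larger step, 9 with a smaller step and 9 when each division had to hold at least 20 genes. The 7 reported here were found each time, except that of chromosome 8. With the smaller step that of chromosome 15 came in 2 pieces. Counts outside the stretches refer to these 7.

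The library medians of these 5 stretches did not overlap between clones. Like the shares below, this follows in part from drawing the stretches on the same differences. The db7 libraries read -0.885, -0.934, -0.792 and -0.888 on chromosome 16, and -0.736, -0.834, -0.714 and -0.781 on X. They read -0.697, -0.689, -0.827 and -0.823 on chromosome 6, -0.655, -0.681, -0.674 and -0.69 on chromosome 15, and -0.236, -0.164, -0.441 and -0.409 on chromosome 8. The a and b lines of db7 thus agreed closely on chromosome 15 and least on chromosome 8, where the b line was lower. Of the tested genes in these stretches, 251 of 380 were lower in db7 and 10 higher, against 21% and 19.7% outside all stretches. All 4 db7 libraries lay below all 4 db5 libraries for 25 of 26 genes on chromosome 6, for 24 of 34 on 8, for 42 of 48 on 15, for 30 of 31 on 16 and for 38 of 46 on X, against a background of 25.9% of such genes outside all stretches.

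**Figure D2:**
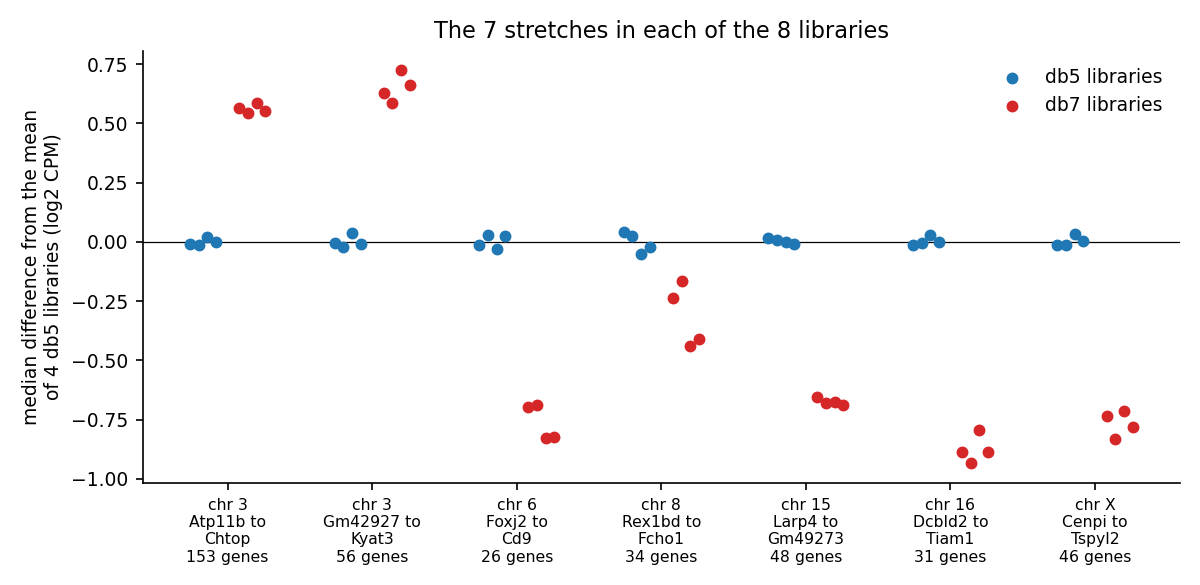
Median difference of each of the 8 libraries from the mean of the 4 db5 libraries over the genes of each of the 7 stretches (log2 CPM). Each point is 1 library. The db7 libraries lie above the db5 libraries in the 2 stretches of chromosome 3 (0.544 to 0.724) and below them in the other 5 (-0.164 to -0.934).

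The clone that stood apart from the other lines differed from stretch to stretch. On chromosome 16, db7 read -0.869 relative to the median of the 5 groups, with db5, B1 and the corrected lines at 0 and A5 at 0.293. On X it was db5 that stood apart (0.664), while db7 (-0.0915) lay among A5 (-0.159), B1 (0) and the corrected lines (0). Chromosome 6 separated the groups more gradually, with db5 at 0.482, B1 at 0.35, A5 at 0, the corrected lines at -0.16 and db7 at -0.282. On chromosome 15, db5 (0.411) was close to A5 (0.307), and db7 (-0.232) was nearer to B1 (-0.0481) and the corrected lines (-0.0779). On chromosome 8 the corrected lines (-0.167) were below db7 (-0.137), with A5 at 0, B1 at 0.0186 and db5 at 0.11. Among these 5 groups db7 stood apart from the rest in both stretches of chromosome 3 and on chromosome 16, and db5 on X. These positions are a description and were not tested.

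**Figure D3:**
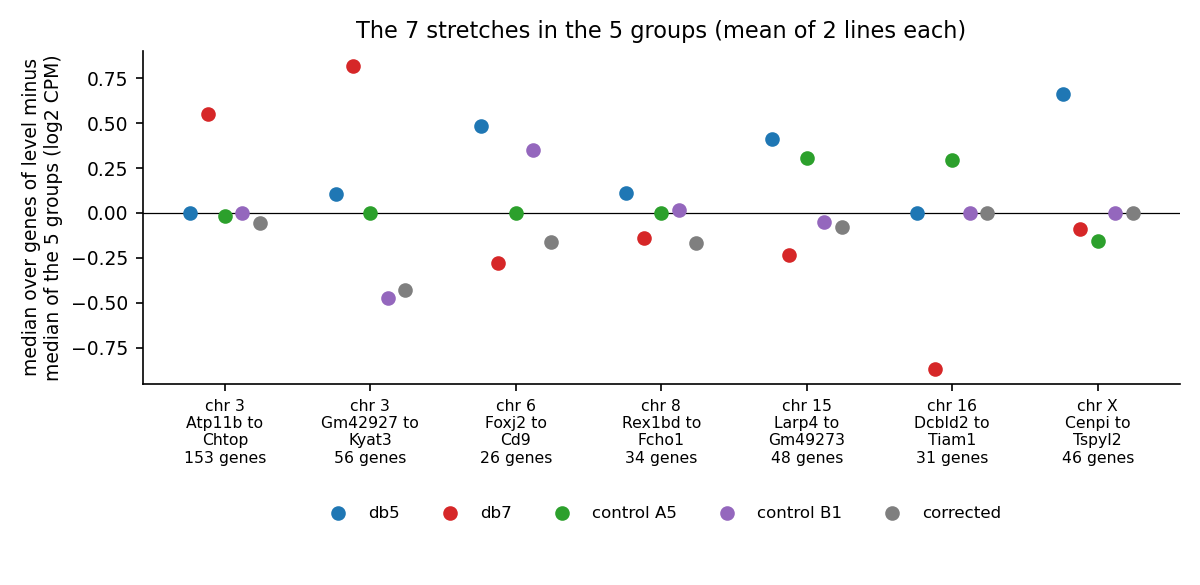
Median over the genes of each stretch of the level of each group minus the median of the 5 groups (log2 CPM). Each point is the mean of 2 lines of a group. In the first stretch of chromosome 3 and on chromosome 16 db7 lies away from the rest (0.549 and -0.869), and on X db5 does (0.664).

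Most named members of the chromosome 16 stretch fell by close to its median. Cct8, a subunit of the cytosolic chaperonin, read 602, 588, 610.1 and 609 CPM in db5 and 314, 276, 321 and 284 CPM in db7, a fall of 1.0 ± 0.04 (adjusted p = 1.06e-08). Jam2, a junctional adhesion molecule gene, fell by 0.99, Atp5j of the mitochondrial ATP synthase by 1.0, the transcription factor gene Gabpa by 0.89 and the deubiquitinase gene Usp16 by 1.0. The amyloid precursor gene App fell by 0.44 and the guidance receptor gene Robo1 by 0.26, both less than the stretch by a tested margin. Without the a line of db5 Robo1 no longer passed (adjusted p = 0.136). Crybg3 differed by -0.01 and did not pass (adjusted p = 0.97).

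On chromosome 6 the affected genes included glycolytic enzymes. Gapdh read 6755, 7633, 6589 and 7029 CPM in db5 and 4453, 4616, 3697 and 3862 CPM in db7 (-0.75 ± 0.07, adjusted p = 6.56e-06), which is the stretch's own shift (-0.01 from it, adjusted p = 0.947). Tpi1, the triosephosphate isomerase gene, read 930.1, 937, 913 and 949 CPM in db5 and 374, 365, 336 and 342 CPM in db7, a fall of 1.39 ± 0.05 that went beyond the stretch by -0.65 (adjusted p = 1.51e-06). The prohibitin gene Phb2, the nucleolar methyltransferase gene Nop2 and the tetraspanin gene Cd9 fell by 0.81, 0.63 and 0.73, and the testis tubulin gene Tuba3a fell by 2.54. Chd4, the remodelling ATPase gene of the NuRD complex, lies inside the stretch and did not pass (0.05, adjusted p = 0.442). Slc2a3, a glucose transporter gene just outside it, differed by -0.01 (adjusted p = 0.828).

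On chromosome 15 the translation factor gene Eif4b read 1368, 1366, 1390 and 1363 CPM in db5 and 852, 809, 912 and 841 CPM in db7 (-0.68 ± 0.04, adjusted p = 1.91e-07). Krt8, the keratin of simple epithelia, went much further, with 33.5, 24.2, 32.6 and 24.4 CPM in db5 and 3.27, 4.3, 3.73 and 3.03 CPM in db7 (-3.02 ± 0.08, adjusted p = 1.22e-09). Its partner Krt18 in the same stretch fell by 2.23, and Krt19, which lies on chromosome 11 outside any stretch, fell by 2.34. The retinoic acid receptor gene Rarg fell by 1.24, the integrin gene Itga5 by 1.20 and the RNA-binding protein genes Pcbp2 and Hnrnpa1 by 0.66 and 0.36.

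On X the ribosomal protein gene Rpl36a read 554, 566, 570.3 and 592 CPM in db5 and 285, 272, 270.5 and 269 CPM in db7 (-1.05 ± 0.04, adjusted p = 1.08e-08), with A5 at 301 and B1 at 578 CPM. Kdm5c, a histone H3K4 demethylase gene, read 419, 432, 402 and 418 CPM in db5 and 221, 222, 233 and 238 CPM in db7 (-0.86 ± 0.04, adjusted p = 5.57e-08). Its level in db7 was close to those of A5 (223 CPM), B1 (262 CPM) and the corrected lines (252 CPM), and db5 was high. The ubiquitin ligase gene Huwe1 fell by 0.69, Morf4l2 by 1.24 and Bex1 by 1.12, whereas the cohesin gene Smc1a (-0.11) did not pass (adjusted p = 0.078, but 0.0347 with the duplicate number as a block). On chromosome 8, Ifi30, Isyna1 and Jak3 fell by 0.97, 0.89 and 1.02.

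Outside the 7 stretches, changes of at least 2-fold were fewer upwards than downwards: 515 genes were higher in db7 (2.73% of 18885) and 914 lower (4.84%). Over genes with at least 1 CPM in 2 or more of the lines, the counts were 274 and 539. Falls off chromosome 3 and outside the stretches were ranked among genes of at least 5 CPM in db5 whose libraries did not overlap between clones. Predicted genes and pseudogenes were left out. The deepest were those of Crmp1, a gene of neuronal cytoskeletal signalling, and of the preferentially expressed antigen family genes Pramel6 and Pramel7. After them came Nxf7, the peptide transporter gene Slc15a1, Xlr5b, Stra8, which acts at the entry into meiosis, Rian, DXBay18, the neural proteoglycan gene Ncan and the chitinase gene Chit1, with falls between 2.56 and 2.98 on the log2 scale. Crmp1 (chr5:37241940-37292133) read 109, 107, 101 and 101 CPM in db5 and 3.27, 2.41, 3.04 and 2.25 CPM in db7, a fall of 5.23 ± 0.08 (adjusted p = 1.85e-11). No db7 library came near a db5 library, although a lack of overlap was required of every gene ranked here. The other groups lay between the 2 clones, at 22.2 (A5), 22.1 (B1) and 3.43 CPM (corrected). Thus both clones lay outside the range of the other lines, db5 above and db7 below.

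Pramel6 and Pramel7 are neighbours on chromosome 2, at the end of a short run of 10 genes (Zdhhc5 to Pramel6, chr2:84687970-87510872) with a median of -0.367. A second such run, Gnb2 to Ppp1r35 (chr5:137528127-137780110, 10 genes), had a median of -0.77. Pramel6 read 7.92, 6.03, 8.94 and 6.58 CPM in db5 and 0.737, 1.03, 0.866 and 0.554 CPM in db7 (-3.23 ± 0.11, adjusted p = 4.46e-09). Pramel7 read 8.36, 5.42, 9.12 and 6.32 CPM in db5 and 0.737, 0.474, 0.507 and 0.424 CPM in db7 (-3.75 ± 0.15, adjusted p = 1.80e-08). The corrected lines were highest for both, at 41.2 and 29 CPM, and db7 was below every other group. Pramel7 and the predicted transcript Gm43807 were the 2 genes under 1 CPM in all db7 libraries and at least 5 CPM in all db5 libraries, and 0 genes met the reverse. Gm43807 read 10.03, 10.7, 11.4 and 10.6 CPM in db5 and 0, 0.0395, 0 and 0 CPM in db7, and the other groups read 0.0323 (A5), 0.0144 (B1) and 0.0261 CPM (corrected), so db5 was the only one of the 5 groups with a sizeable level.

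The promoters of the pair and of Crmp1 differ in CpG content, which is shown since methylation acts on CG pairs and all 3 genes were strongly down. The sequences are from RefSeq (GRCm38.p6), 5′ to 3′, with each CG in capitals, and were printed only up to the first annotated exon.
Crmp1, chr5:37241808-37241939, plus strand: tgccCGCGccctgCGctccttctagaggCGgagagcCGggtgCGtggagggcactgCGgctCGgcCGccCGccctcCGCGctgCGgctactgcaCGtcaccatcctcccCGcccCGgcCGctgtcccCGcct
Pramel6, chr2:87506315-87506564, plus strand: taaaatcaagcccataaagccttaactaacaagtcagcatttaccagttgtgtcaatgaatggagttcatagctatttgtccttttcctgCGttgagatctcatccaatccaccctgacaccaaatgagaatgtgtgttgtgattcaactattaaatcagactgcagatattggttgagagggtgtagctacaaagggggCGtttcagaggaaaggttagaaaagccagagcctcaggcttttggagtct
Pramel7, chr2:87492445-87492668, minus strand: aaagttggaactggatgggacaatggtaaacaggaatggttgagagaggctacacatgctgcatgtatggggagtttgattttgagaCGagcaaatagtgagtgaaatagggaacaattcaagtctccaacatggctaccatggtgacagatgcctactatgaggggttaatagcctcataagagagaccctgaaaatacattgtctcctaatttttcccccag
In the 250 bases before the RefSeq start, Crmp1 had 30 CG pairs (a CG reads the same on both strands), a number that 5.94% of 32851 promoters of that length reached or exceeded. That start lies 118 bases inside the gene from the GENCODE start of Crmp1, and 18 of the 30 pairs lie in the printed part. Pramel6 had 2 and Pramel7 had 1, and 29% and 18.8% of promoters had no more than that, with a median of 6 over all. The RefSeq start used for Pramel7 lies 4675 bases inside the gene from the start annotated by GENCODE, so the printed stretch lies within the GENCODE gene and need not be the promoter in use. Methylation of these lines was not analysed here.

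A small run of X-linked genes, Xlr4a to Xlr5c (chrX:73074345-73292976, 11 genes), was lower by a median of 2.27 on the log2 scale. Xlr genes are a lymphocyte- and germline-expressed family whose copies are nearly alike, so the values of single copies are uncertain and the run is better read as a whole. Xlr3a read 64.5, 70.9, 67.6 and 75.6 CPM in db5 and 14, 14, 14.3 and 14.9 CPM in db7 (-2.27 ± 0.05, adjusted p = 3.49e-10). The order was the same for the run, with db7 at -2.98 and db5 at -0.704 relative to the median of the 5 groups, and A5, B1 and the corrected lines at 0.397, 0.735 and 0. Both clones were thus below the other lines, and db7 was the lower. Of 21 tested genes of the Xlr and other X-linked families, 16 fell and 2 rose, with a median of -2.13. Over all tested genes outside the stretches 21% fell and 19.7% rose, with a median of 0.00642.

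The imprinted Dlk1-Dio3 cluster on chromosome 12 was lower in db7. The RNAs that the maternal copy of this cluster expresses are known to be silenced in some mouse iPSC clones. Rian read 7.48, 8.36, 8.13 and 7.74 CPM in db5 and 0.943, 1.62, 0.896 and 1.79 CPM in db7 (-2.62 ± 0.08, adjusted p = 1.98e-09), and Meg3 read 15.5, 14.9, 15.7 and 13.8 CPM in db5 and 2.89, 5.68, 3.52 and 6.13 CPM in db7 (-1.75 ± 0.08, adjusted p = 5.12e-08). No db7 library reached a db5 library. Both clones were below the other groups, which read 69 (A5), 47.9 (B1) and 39.3 CPM (corrected) for Meg3. Mirg fell by 3.67, Dlk1 fell by 1.58 and Dio3 fell by 1.0, and 6 of 7 tested genes of the cluster fell, with a median of -1.75. Among 49 other imprinted genes 10 rose and 17 fell, against 19.7% higher and 21% lower over all tested genes outside the stretches. Peg3 read 538, 531, 560.2 and 503 CPM in db5 and 212, 197, 283 and 265 CPM in db7 (-1.15 ± 0.10, adjusted p = 3.40e-06), Mest, Peg12 and Zrsr1 fell by 0.77, 0.89 and 0.83, and Slc38a4 rose by 0.65.

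The Nodal antagonists Lefty1 and Lefty2, which are also targets of Nodal, fell together. Lefty1 read 139.7, 127, 136 and 130.4 CPM in db5 and 43.2, 42.9, 37.5 and 39.4 CPM in db7 (-1.71 ± 0.07, adjusted p = 2.23e-08). Lefty2 read 579, 519, 569.8 and 519.7 CPM in db5 and 236, 207, 225 and 194 CPM in db7 (-1.33 ± 0.04, adjusted p = 1.98e-09). The groups of 4 libraries were well apart for both, and the corrected lines were low too, at 16.5 and 234 CPM. Nodal itself fell by 0.28. Id1, a target of BMP signalling, fell by 1.0, whereas Id4 rose by 1.23, and Dusp6, Dusp4 and Spry2, feedback inhibitors of ERK signalling, rose by 0.66, 1.13 and 0.36. Over 32 targets of Wnt, FGF, Nodal and BMP outside the stretches, 9 rose and 12 fell, with a median of -0.173. Of all tested genes outside the stretches 19.7% rose and 21% fell.

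Genes of glycolysis and of the response to low oxygen were lower in db7 beyond the stretch on chromosome 6. Outside the stretches 26 of 36 tested identifiers (Aldoa has 2) fell and 3 rose, with a median of -0.486. Without the second library of the a line of db7 the counts were 26 and 3 again. The background over all tested genes outside the stretches was 21% lower and 19.7% higher. Slc16a3, the lactate exporter gene, read 151, 153, 140.1 and 148 CPM in db5 and 46.5, 44, 41.8 and 39.9 CPM in db7 (-1.77 ± 0.06, adjusted p = 3.48e-09). Ndrg1 read 35.4, 35, 33 and 35.1 CPM in db5 and 11.1, 10.03, 11 and 9.1 CPM in db7 (-1.74 ± 0.05, adjusted p = 1.41e-09). Ldha, the lactate dehydrogenase A gene, read 1475, 1446, 1466 and 1467 CPM in db5 and 891, 803, 817 and 748 CPM in db7 (-0.83 ± 0.04, adjusted p = 1.08e-07). In these 3 genes each db7 library was under each db5 library, and for Slc16a3 and Ndrg1 db7 was also below the means of A5, B1 and the corrected lines. Pfkfb3, Vegfa, Bnip3, Slc2a1, Pgk1 and Pkm fell by 1.20, 0.88, 0.84, 0.64, 0.60 and 0.41. Ldhb, the other lactate dehydrogenase gene, rose by 0.73, and Hif1a rose by 0.24 (adjusted p = 0.00483, but 0.055 without the a line of db5).

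Genes of the 2-cell-like state, which a small share of mouse pluripotent cells enters in passing and which recalls the early cleavage embryo, were lower in db7. Against 21% lower and 19.7% higher over all tested genes outside the stretches, 21 of 30 tested members fell and 0 rose. Their median was -1.41, and 20 of the 21 fell by at least 2-fold. At an unadjusted p under 0.05 edgeR called 23 lower and 0 higher, DESeq2 called 20 lower and 0 higher after adjustment, and limma-voom 22 and 0. Without the second library of the a line of db7 the counts were 22 and 1. Tmem92 read 4.19, 5.5, 4.12 and 5.33 CPM in db5 and 1.62, 1.97, 1.58 and 1.83 CPM in db7 (-1.45 ± 0.10, adjusted p = 5.55e-07), and Zscan4f read 1.95, 3.15, 2.61 and 2.98 CPM in db5 and 0.796, 0.908, 1.07 and 1.08 CPM in db7 (-1.45 ± 0.13, adjusted p = 6.63e-06). In both genes the db5 libraries were in turn below A5 and B1, whose lower value was 11.5 CPM (B1) for Tmem92 and 7.53 CPM (A5) for Zscan4f. The levels are low and the Zscan4 copies are nearly alike, so the values of single copies are uncertain here too. In bulk RNA fewer cells in such a state and less RNA per cell cannot be told apart.

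**Figure D4:**
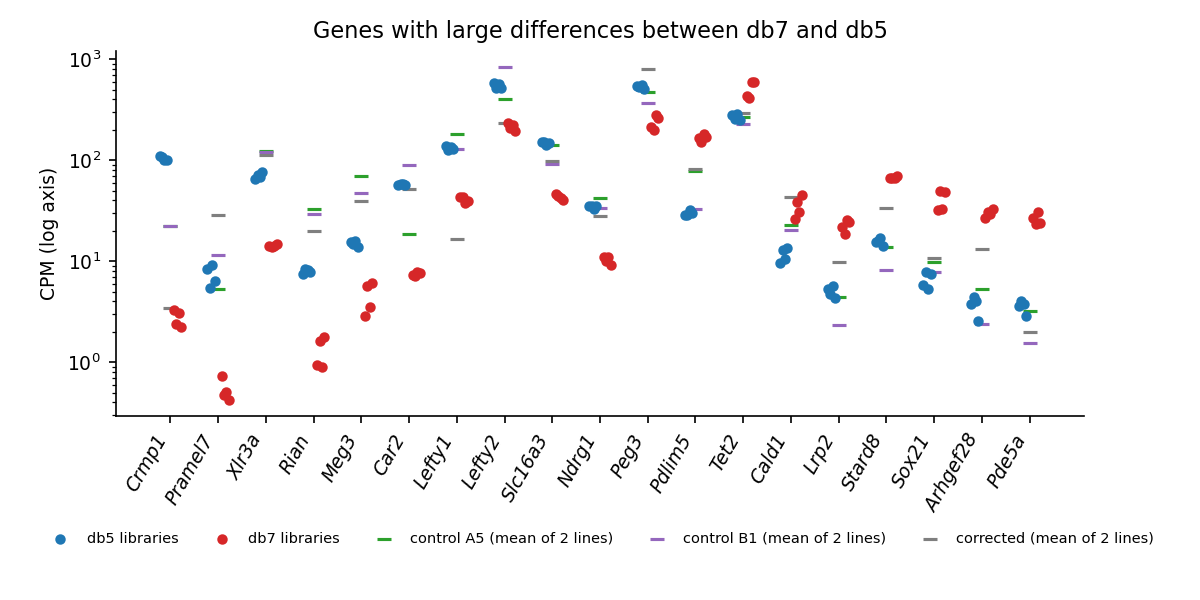
CPM of 19 genes with large differences in the 8 libraries (log axis). Points are single libraries of db5 and db7, and dashes are the means of 2 lines of control A5, control B1 and the corrected group. For Crmp1 the db5 libraries lie at 101 to 109 CPM and the db7 libraries at 2.25 to 3.27 CPM, with the other groups between them.

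Rises off chromosome 3 were ranked among genes of at least 5 CPM in db7 whose libraries did not overlap between clones, with predicted genes and pseudogenes left out. The largest were of Arhgef28, Kctd12b, Sox21, Hecw2, Sh3bgrl, Lrp2, Fam169b, Stard8, Cass4, Lpar4, Cdkl4 and Lpar6. Arhgef28, a guanine nucleotide exchange factor gene, read 3.75, 4.44, 4.04 and 2.55 CPM in db5 and 26.7, 30.4, 29.4 and 33 CPM in db7 (3.0 ± 0.11, adjusted p = 8.68e-09). Sox21, a transcription factor gene of neural progenitors, read 5.76, 7.74, 5.25 and 7.51 CPM in db5 and 32, 49.6, 33 and 48.5 CPM in db7 (2.62 ± 0.07, adjusted p = 1.01e-09). Stard8, a gene on X outside the stretch, read 15.5, 15.8, 16.8 and 14.1 CPM in db5 and 67.1, 67.2, 67.2 and 69.8 CPM in db7 (2.13 ± 0.05, adjusted p = 3.65e-10). In these 3 genes db7 was the highest of all 5 groups, the next being the corrected lines for Arhgef28 (13.2 CPM), Sox21 (10.8 CPM) and Stard8 (33.8 CPM). Lrp2, the endocytic receptor megalin, read 5.26, 4.77, 5.72 and 4.33 CPM in db5 and 21.9, 18.8, 25.5 and 24.2 CPM in db7 (2.18 ± 0.11, adjusted p = 6.39e-08). Rps4x, a ribosomal protein gene on X outside the stretch, read 1416, 1456, 1497 and 1509 CPM in db5 and 2852, 2549, 2676 and 2464 CPM in db7 (0.86 ± 0.04, adjusted p = 4.42e-08). Here db5 was the low group, since A5, B1 and the corrected lines read 2561, 2770 and 2258 CPM.

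Pluripotency factors differed by small amounts, though often by a tested margin. Pou5f1 and Nanog differed by -0.11 and 0.12 (adjusted p = 0.0387 and 0.0287), and neither passed without the a line of db5 (adjusted p = 0.126 and 0.233). Klf4 differed by 0.04 (adjusted p = 0.538) and Myc by -0.31 (adjusted p = 0.00113). Of 15 core factors 4 rose and 8 fell, with a median of -0.12, and of 21 genes of the naive state 5 rose and 8 fell, with a median of 0.0417, against 19.7% higher and 21% lower over all genes outside the stretches. The 4 rises and 8 falls of core factors became 1 and 5 without the a line of db5, and the 5 naive rises became 8 with the duplicate number as a block and without the a line of db7. Lin28a, Tdgf1 and the methyltransferase cofactor gene Dnmt3l fell by 0.43, 0.38 and 0.41, and Pecam1, a surface marker of naive cells, by 0.92. The de novo methyltransferase gene Dnmt3a fell by 0.68, and the demethylation enzyme gene Tdg rose by 0.62. In the leptin receptor and JAK-STAT3 list 7 of 26 genes rose and 7 fell. Its feedback inhibitor gene Socs3 fell by 0.49, and Stat3 differed by -0.07 (adjusted p = 0.15).

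Lists of ribosomal proteins and of nuclear genes of respiration leaned down by small amounts. Outside the stretches 42 of 75 genes of cytosolic ribosomal proteins fell and 1 rose, with a median of -0.156. Of 67 nuclear genes of the respiratory chain 32 fell and 1 rose, with a median of -0.124. The background for the lists of this paragraph was 21% lower and 19.7% higher over all tested genes outside the stretches. The 1 riser in the ribosomal list was Rps4x and that in the respiratory list was Ndufs5 (1.01). The mitochondrially encoded genes leaned the other way, with 5 of 13 higher and 1 lower and a median of 0.177. The 5 became 10 with the duplicate number as a block and without the a line of db7, and 2 without either line of db5. The 42 ribosomal falls became 67 without the a line of db7 and 15 without the b line of db5, and the 32 respiratory falls became 51 without the a line of db7, 21 without the a line of db5 and 20 without its b line. Of 36 genes of the amino acid and unfolded protein stress responses 20 fell and 5 rose, with a median of -0.243. The ribosomal protein genes within the stretches moved with their stretch instead, 3 of 3 up on chromosome 3 and 3 of 3 down elsewhere. A list's total therefore mixes stretch and non-stretch members unless they are given apart.

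Against a background outside the stretches of 19.7% higher and 21% lower, the fibroblast and fibrillar matrix list was higher in db7. It had 25 of 46 genes up and 6 down, with a median of 0.441. Without the second library of the a line of db7 it was 18 up and 7 down, with a median of 0.313. Cald1, an actin-binding protein gene, read 9.54, 13, 10.4 and 13.6 CPM in db5 and 26.2, 38.9, 30.8 and 45.5 CPM in db7 (1.59 ± 0.08, adjusted p = 7.43e-08). Collagen genes followed the number of the duplicate as well: Col1a1 read 44.5, 78.5, 37.7 and 71.7 CPM in db5 and 59.8, 116, 57.6 and 102 CPM in db7, the second duplicate of each line being the higher, and the clones overlapped (0.51 ± 0.11, adjusted p = 0.00352, but 0.118 without the second library of the a line of db7). The summed level of 8 fibroblast markers was 76.4 to 147 CPM in db5 and 118 to 223 CPM in db7, and the part of residual fibroblasts in the list's difference was not tested. Of the markers of other lineages, the 4 neural ones summed to 75.7 to 85.4 CPM in db5 and 53.4 to 58.8 CPM in db7. Tubb3 and Sox1 fell, whereas Map2 (14.3 to 20.9 CPM in db5, 12.9 to 21.6 CPM in db7) and Pax6 overlapped between clones. A longer list of neural progenitor genes had 6 higher and 7 lower of 24. The 4 of mesoderm summed to 7.13 to 9.3 CPM in db5 and 11.6 to 15.3 CPM in db7. Of these T, Mixl1 and Kdr were under 1 CPM in all 8 libraries, so the sum was nearly all Eomes (6.69 to 8.98 CPM in db5, 11.03 to 14.7 CPM in db7). A longer list of mesoderm and primitive streak genes did not rise with it, at 1 higher and 8 lower of 27 (median -0.0509). The 5 markers of primitive endoderm summed to 13.8 to 15.8 CPM in db5 and 6.28 to 8.9 CPM in db7. Of these Gata6, Sox17 and Foxa2 were under 1 CPM in all 8 libraries. The 4 of trophoblast summed to 2.58 to 2.83 CPM in db5 and 1.14 to 1.37 CPM in db7, with Cdx2 and Elf5 under 1 CPM in all 8 libraries. The clones did not overlap in any of these 4 sums, and their part in the differences was not tested. Among single genes of at least 10 CPM outside the stretches, 22.5% separated the clones upwards and 25.9% downwards. Replication-dependent histones gave 5 up and 3 down of 35 with a median of 1.15, but 1 up and 6 down with a median of -0.136 without that library. Gm42418, at 1380, 1524, 1363 and 1473 CPM in db5 and 5337, 51890, 1379 and 1235 CPM in db7, was called (3.22 ± 0.88, adjusted p = 0.0122) and rests on the a line of db7, without which the difference was -0.12.

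**Figure D5:**
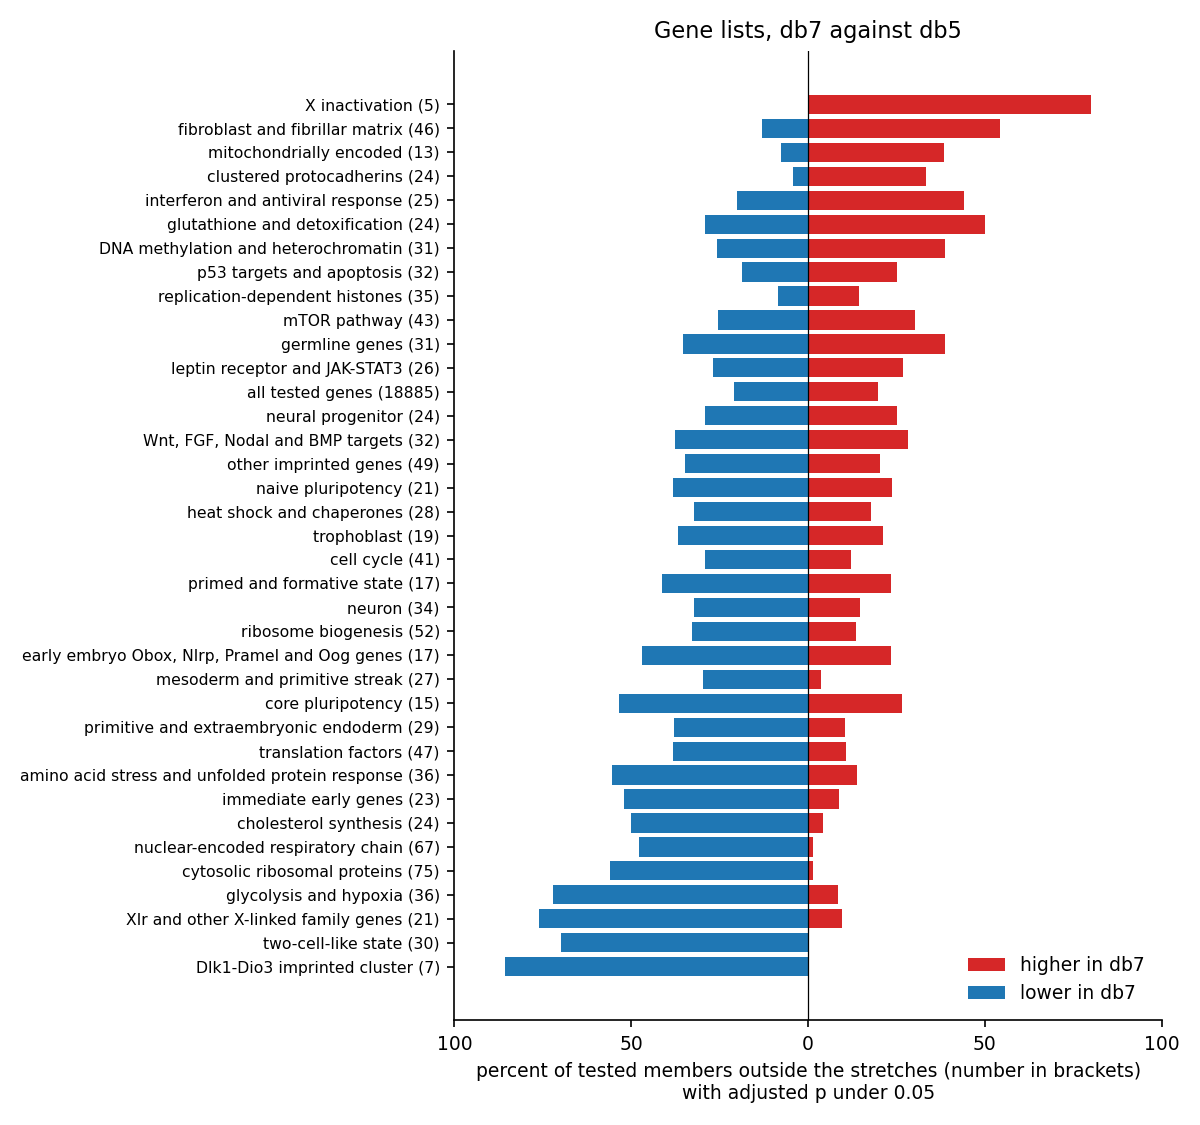
Share of the tested members of each gene list outside the 7 stretches that were higher (right) or lower (left) in db7 at an adjusted p under 0.05, in percent, with the number of tested members in brackets. The bar of all tested genes, 19.7% higher and 21% lower, is the background. The Dlk1-Dio3, Xlr, 2-cell-like and glycolysis lists extend furthest to the left.

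Which clone was unlike the other lines differed between rises and falls. Among the 914 genes at least 2-fold lower outside the stretches, db7 alone lay outside the range of the 8 other lines in 584, db5 alone in 118, both in 45 and neither in 167. Among the 515 genes at least 2-fold higher, db7 alone lay outside in 138, db5 alone in 189, both in 32 and neither in 156. Of the 288 genes called higher in the chromosome 3 stretches, db7 alone lay outside in 202 and db5 alone in 30. As a description over these lines, the falls were mostly low values of db7, and the rises were divided between high values of db7 and low values of db5. These genes were picked for a difference between db7 and db5. The same shares over all tested genes are not given here, so the counts have no background. A further clone of this genotype was not analysed here, so none of these differences can be ascribed to one genotype or to a usual range of clones.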

How the data were processed

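Poly(A) RNA of 19 libraries was sequenced. The authors deposited 1 table of estimated counts per Ensembl gene (52143 identifiers). Kallisto and GRCm38 stand in the submitters' processing notes. The kallisto version, index and strand setting were not given in the sources used here. Estimated counts divide reads among similar transcripts, so near-identical genes are uncertain. GENCODE M21, also GRCm38, gave names and positions for 51336 identifiers, which held 99.4% of the counts. Totals in the 8 libraries ran from 27333665 to 37803318.

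Counts were rounded, and the 2 libraries of a line summed, since the labels do not say that duplicates were separate cultures. All 10 lines in 5 groups entered 1 edgeR 4.0.16 quasi-likelihood fit (R 4.3.3, filterByExpr, TMM; 19700 genes), with Benjamini-Hochberg adjustment over all of them and a threshold of 0.05. Fold changes came from this fit, and medians from log2 CPM (prior count 2) over genes that reached 10 CPM on average. Chromosomes were divided into segments of at least 10 genes with a penalty of 20 times the noise variance. Departures were tested in the same fit with the shift of the stretch as an offset; the test with the median of chromosome 3 as the shift, the one set out first, called 529 genes. On simulated counts for this comparison (19700 genes) the fit called 95 of 100 genes changed by 0.5 on the log2 scale, 100 of 100 changed by 1 and 11 unchanged genes. The changed genes were drawn from those of at least 5 CPM on average and were far fewer than the calls in the data. Recovery at lower levels was not tried.

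The members and the 38 gene lists were chosen with earlier results of these data known. Genes named in the text were the 12 largest rises and the 12 largest falls off chromosome 3 and the 6 each way on it, those that departed most, from every list at most 4 genes of lowest p, and fixed genes such as Lepr; some of these are not reported here. The ranked rises and falls needed at least 5 CPM in the higher clone and no overlap of the 4 libraries of each clone. Predicted genes and pseudogenes were left out. The separation of the libraries in these ranked genes was thus fixed by the choice and is no separate support. Other genes, among them Rarg, Kdm5c, Huwe1, Chd4 and Peg3, were chosen after their values were seen. The duplicate numbers paired the libraries: deviations of same-numbered libraries of a db5 and a db7 line correlated at 0.178 to 0.527 over 9148 genes in all 4 pairs. The line letters did not pair them (0.0419 between db5 and db7). Alternatives were other scalings, DESeq2 1.42.0, limma-voom (limma 3.58.1), single libraries with and without a block, other filters, fewer groups and leaving out each line. Python 3.11.15 with pandas 2.3.3 and matplotlib 3.10.9 made tables and figures.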

Additional observations from a re-analysis of the deposited data

Results flagged for a closer look

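In groups of 4 libraries, a library was listed where its gap to the nearest other, as a share of the whole range, was above Dixon's critical value. Of 98 groups looked at, 5 gave such a library, and about 1 in 20 would by chance. Gm42418 read 51890 CPM in the second library of the a line of db7 against 1235 to 5337 CPM in the other db7 libraries, which is 4.81% of its counts against 0.123% to 0.514%. Rpl36a read 285.2 CPM in the first library of that line against 269.3 to 271.7 CPM in the other db7 libraries. Stard8 read 69.8 CPM in the second library of the b line of db7 against 67.1 to 67.2 CPM. Gm43807 read 0.0395 CPM in the second library of the a line of db7 and 0 in the other 3.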

How the results depend on the processing

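Total counts of called genes, both directions together, stayed within 1.5 times of those reported under every alternative run, from 5369 to 9040 off chromosome 3 (7737 reported), from 424 to 554 on it (532) and from 404 to 562 for departures from the median of chromosome 3 (529; 404 is relative to the stretch, an alternative chosen after seeing the data); the list total ranged from 473 to 792 (670). With the duplicate number as a block (corrected lines left out, since their duplicates carry letters) the counts were 8686 and 554, without a replicate block on single libraries 8355 and 547, and with the line letter as a block 7134 and 503, and the pairing by duplicate number changed, among the genes followed, the calls of Nes and Smc1a and no other. The median of chromosome 3 was 0.258 over all tested genes and 0.274 over genes of at least 50 CPM, and 0.267 to 0.32 when a line was left out (0.267 without the b line of db7, 0.273 without the a line of db5). Genes near silent in one clone were 1 with a limit of 0.5 CPM, 1 with at least 10 CPM in the other clone, and 2 to 6 when a line was left out. Gm42418 (3.22) ranged from -0.12 without the a line of db7 to 4.14 without the b line, and Crybg3 (-0.01) from 0.21 to -0.28; the cause was not tested. The stretch of chromosome 16 ranged from -0.979 to -0.777 when a line of db7 was left out, and genes lower on chromosome 3 were 87 with the 4 db/db lines alone (133). Of 282 genes followed, 4690 of 4785 values kept their side of the threshold and, where the gene passed, their direction. A gene that passed in neither fit was counted among these even if its direction changed. A line left out leaves its clone with 1 line, assumed to vary like the other groups. DESeq2's and limma-voom's tests give no medians or departures. Levels under 1 CPM rest on few reads.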

Other observations

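Further lists, given for the genes outside the 7 stretches, moved in both directions. The background over all tested genes outside the stretches was 19.7% higher and 21% lower. Of 5 tested genes of X inactivation 4 rose. Xist, the RNA that coats the inactive X, was low throughout, at 1.32, 1.24, 1.68 and 1.26 CPM in db5 and 1.89, 2.05, 3.04 and 3.39 CPM in db7 (a rise of 0.92 ± 0.21, adjusted p = 0.00453), and its antisense partner Tsix rose by 0.52; whether the counting used strand is not known here, so reads of the pair may not be told apart. Clustered protocadherins, cell adhesion genes with many similar isoforms, gave 8 higher (5 without either line of db5) and 1 lower of 24 (median 0.584), and Pcdhga11 rose by 1.28. Of 25 genes of the interferon response 11 rose and 5 fell (median 0.229): the membrane protein gene Ifitm1 rose by 1.02, and H2-D1, a class I histocompatibility gene, fell by 1.56. Of 24 detoxification genes 12 rose and 7 fell (median 0.283), and Aldh3a1, an aldehyde dehydrogenase gene, fell by 1.14.

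Germline genes were divided, with 12 of 31 higher (7 without the a line of db5) and 11 lower. Stra8 read 8.5, 12, 8.68 and 10.6 CPM in db5 and 1.36, 2.13, 1.1 and 1.79 CPM in db7, a difference of -2.66 ± 0.12 (adjusted p = 2.89e-08), whereas Piwil2, a gene of the piRNA pathway, rose by 0.54. Neural progenitor genes gave 6 higher and 7 lower of 24: Sox21 rose as given above, while Sox1 fell by 1.33 and Sox3 fell by 1.61. Immediate early genes leaned down (2 higher and 12 lower of 23, median -0.208), with Ier3 lower by a fitted log2 difference of -1.17. Genes of cholesterol synthesis leaned down as well (1 higher and 12 lower of 24, median -0.135, with 7 lower without the a line of db5), and Fdft1, the squalene synthase gene, fell by 0.33. Over all tested genes outside the stretches the shares were 19.7% higher and 21% lower.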
